A study of Mus musculus with 13 samples.

Results

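The comparison described here set tumours of a transduced control line against tumours of the untransduced line it came from. The control line, 4T1OE-CTL, is the overexpression control of a study of NLRX1 in 4T1 cells, which derive from a BALB/c mouse mammary carcinoma. All 4 arrays of 4T1OE-CTL tumours and all 4 arrays of parental 4T1 tumours were taken, which is 8 of the 12 tumour arrays of the series (13 samples with a manufacturer's control RNA, not used here). Each array was a Clariom S mouse array, which reports 1 log2 expression value for each transcript cluster, and it was hybridised with RNA pooled from tumours.

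The cells had been injected into a mammary fat pad of WT BALB/c or of Nlrx1-/- BALB/c mice, with 2 arrays for each combination of host and line. No treatment was given, and the tumours were flash frozen. In the parental tumours the cancer cells were unmodified, and in the 4T1OE-CTL tumours they carried the control transduction. Neither line carried the NLRX1 overexpression of the other 4 tumour arrays (4T1OE). The sources used here do not give host age, tumours per pool, tumour size at collection, the control vector or how transduced cells were selected. The transduced cells were 1 line, so the transduction cannot be told apart from any other difference between that line and the parental cells. The pools also contain host cells, so in bulk RNA fewer cells of a type and less RNA per cell cannot be told apart. The p-values measure the spread between pools.

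The array service had recommended leaving out Nlrx1-/- parental replicate 1. It was left out of the fit and its values are given separately, which leaves 3 parental arrays, 1 of them from a Nlrx1-/- host. Differences are 4T1OE-CTL minus parental on the log2 scale, with host genotype as a covariate (limma), and a feature was called at a Benjamini-Hochberg adjusted p under 0.05 over all 22206 features. The 4T1OE arrays entered the fit for a shared estimate of the spread and of the host term, which also bears on the line differences. Where every array of 1 line lay under that array's median of negative control features, the difference is given as a lower bound.

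As background, epithelial cells are held together by adherens junctions built on E-cadherin, by tight junctions built on claudins and by desmosomes anchored to keratin filaments. EpCAM marks the same cells, and Grhl2 and the splicing factors Esrp1 and Esrp2 maintain the epithelial programme. Interferon gamma, a product of activated T cells and natural killer cells, acts through its receptor and the kinases Jak1 and Jak2. Its targets include the chemokines Cxcl9, Cxcl10 and Cxcl11, guanylate-binding proteins, immunity-related GTPases, the checkpoint ligand Cd274 (PD-L1) and the genes of antigen presentation. Type I interferons act through a receptor of their own on an overlapping set of genes.

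The arrays were alike in overall pattern, with a lowest correlation of 0.948 between any 2 fitted arrays, whereas the array left out had a median correlation of 0.896 with the others. The standard deviation of the values within an array was 2.89, 3.07 and 3.04 on the fitted parental arrays, 2.53 on the array left out and 2.88, 3.07, 2.91 and 2.78 on the 4T1OE-CTL arrays. Nlrx1 itself, the gene the study is about, did not separate these lines. It lay at 6.13, 7.13 and 6.60 on the parental arrays, 6.75 on the array left out and 7.06, 6.93, 6.39 and 5.99 on the 4T1OE-CTL arrays, a difference of -0.02 (SE 0.366, adjusted p = 0.988). On the 4T1OE arrays the same feature read 9.31 to 10.67.

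Tumours of the transduced control line had lower levels of epithelial junction genes and higher levels of interferon gamma targets than parental tumours. Of the 22206 features, 575 were called (2.59%), 215 of them higher (0.968%) and 360 lower (1.62%) in 4T1OE-CTL. These shares are the background for every list count below. The median difference over all features was 0.02, and 52.0% of them were positive. With the array left out put back, so that all 12 tumour arrays were fitted, 157 features were called (0.707%), 111 higher and 46 lower. The larger loss was therefore among the lower calls, and the split turned from 37.4% higher to 70.7% higher. With the compared lines alone, 147 were called (0.662%), 49.0% of them higher, and 19 (0.0856%), 68.4% of them higher, when the array left out was added to those. All 575 features kept their sign in each of these fits, which share arrays with the reported one.

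The count rested heavily on the lone Nlrx1-/- parental array. Without Nlrx1-/- parental replicate 2, 126 features were called, 117 of them shared with the 575. Without WT parental replicate 1 the count was 880 and without WT parental replicate 2 it was 293. With each array's standard deviation added to the model 583 were called, 48.0% of them higher. Without overlap between all 4 arrays of 1 line and all 4 of the other were 576 features higher (2.59%) and 325 lower (1.46%). Among the called features these included 170 of the 215 higher but 86 of the 360 lower. With the 3 fitted parental arrays, on which the calls were made, the counts were 198 and 352.

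**Figure D1:**
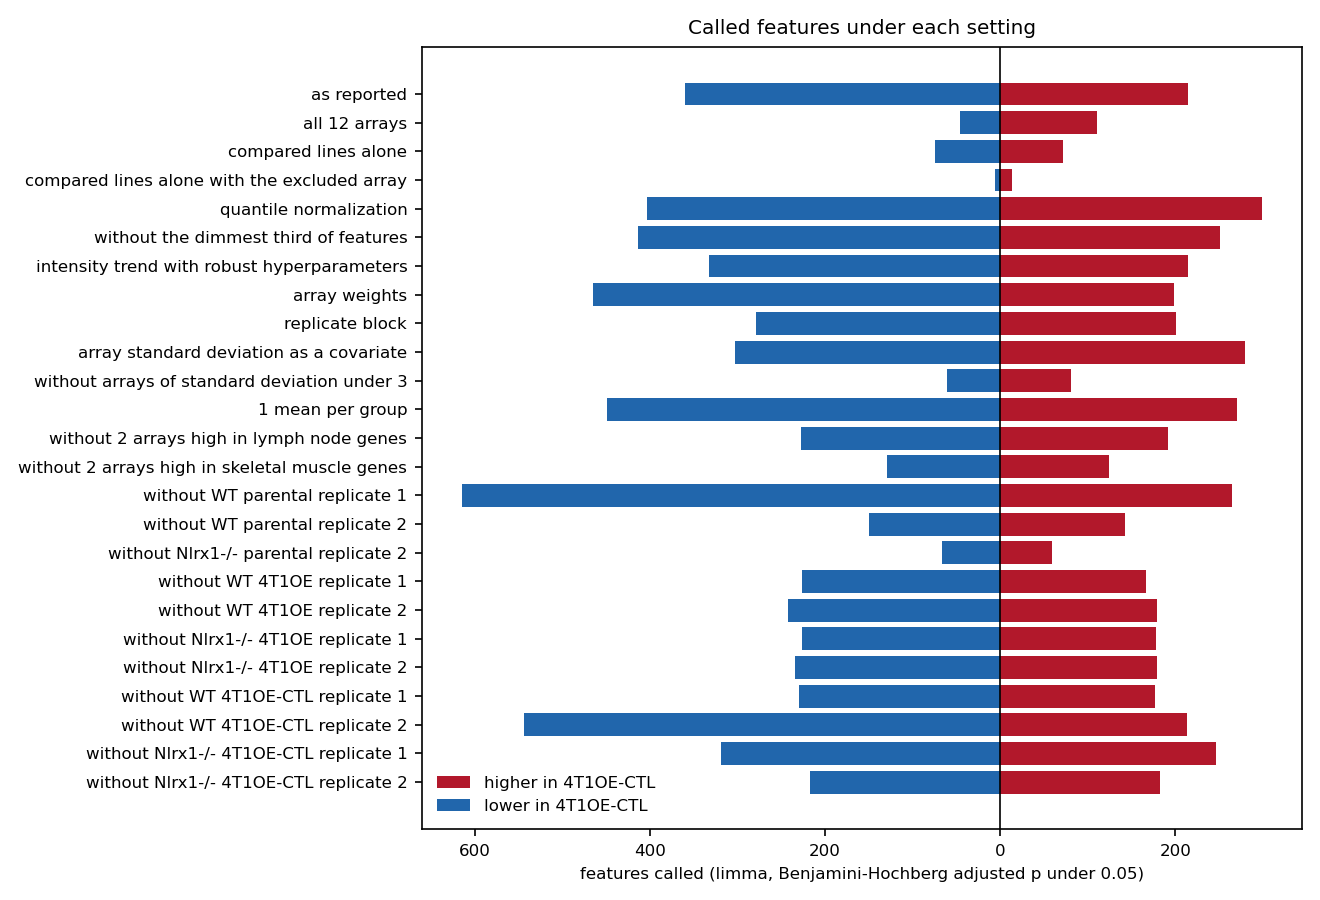
Number of features called in the comparison of 4T1OE-CTL with parental tumours under each setting, drawn to the right where higher in 4T1OE-CTL and to the left where lower (limma, adjusted p under 0.05). The top bars are the reported fit with 215 higher and 360 lower, and the bars are much shorter with all 12 arrays, with the compared lines alone and without Nlrx1-/- parental replicate 2.

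Epcam and Cldn4 showed the largest fall of all called genes. Epcam, the epithelial cell adhesion molecule, read 14.95 and 14.42 on the WT parental arrays, 13.02 on the Nlrx1-/- parental array and 12.57 on the array left out. It read 9.81 and 8.57 on the WT and 6.94 and 7.06 on the Nlrx1-/- 4T1OE-CTL arrays. The lowest parental array lay well above the highest 4T1OE-CTL array, and in both lines the Nlrx1-/- arrays were the lower ones. The difference was -5.84 (SE 0.507, adjusted p = 0.000619), a 57.2-fold lower level, and -5.65 with all 12 arrays (adjusted p = 0.00142).

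Cldn4, a claudin of epithelial tight junctions, read 15.35, 14.42 and 13.87 on the fitted parental arrays, 13.78 on the array left out, and 11.71, 8.44, 7.22 and 6.64 on the 4T1OE-CTL arrays. The lines did not overlap, though the WT 4T1OE-CTL replicate 1 array stood far above the other 3 of its line. The difference was -5.83 (SE 0.857, adjusted p = 0.00443). Both genes were called in each of the 24 alternative fits. On the 4T1OE arrays, the other transduced line, Epcam read 7.77 to 9.08 and Cldn4 6.82 to 8.71.

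The bases just before the start of these genes are shown because their products marked the comparison most clearly and because the core E-box CACCTG, which Snail and Zeb repressors can bind, lies there. The stretches are from RefSeq on build GRCm38.p6 (C57BL/6J, not the BALB/c of the hosts), 5′ to 3′ on the gene's strand, with matches to CACCTG on either strand in capitals. Epcam is shown from 202 bases to 1 base before its start (chr17:87635777-87635978, plus strand) and Cldn4 from 29 bases to 1 base before it (chr5:134946935-134946963, minus strand).
Epcam: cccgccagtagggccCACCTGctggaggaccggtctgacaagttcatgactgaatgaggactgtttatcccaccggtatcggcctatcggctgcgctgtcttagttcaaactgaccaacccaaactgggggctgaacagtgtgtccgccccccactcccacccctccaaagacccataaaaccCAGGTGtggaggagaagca
Cldn4: gagctttaactgcagCACCTGtggccgcc

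Of the list of epithelial adhesion and tight junction genes, 8 of 23 measured fell and none rose, against 1.62% of all features called lower. The list median was -0.75. The other fallen members were Cldn7, Perp, Cdh1, Cldn3, F11r and Lsr. Cldn7 read 7.74 to 9.38 on the fitted parental arrays and 4.27 to 5.20 on the 4T1OE-CTL arrays, which all lay under their negative controls, so it fell by at least 2.55 (adjusted p = 0.00106). Cldn3 fell by 2.33 (SE 0.362, adjusted p = 0.00623). Perp, a desmosomal membrane protein and p53 target, fell by 3.55, from 10.71 to 11.26 on the fitted parental arrays (8.55 on the array left out) to 5.26 to 8.20.

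Cdh1, the gene of E-cadherin, was less separated. It read 13.49 and 13.44 on the WT parental arrays, 11.20 on the Nlrx1-/- parental array, 11.05 on the array left out, and 11.73, 10.44, 7.82 and 7.63 on the 4T1OE-CTL arrays. The WT 4T1OE-CTL replicate 1 array thus overlapped the Nlrx1-/- parental arrays. Cdh1 fell by 2.97 (SE 0.536, adjusted p = 0.0145), and its 4T1OE values of 10.51 to 11.62 lay at the level of the Nlrx1-/- parental arrays. F11r, the junctional adhesion molecule A, and Lsr, of tricellular junctions, fell by 1.35 and 1.30. Both were named after their values had been seen. With all 12 arrays 6 members were called, and without Nlrx1-/- parental replicate 2 there were 5.

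Among desmosome genes 4 of 11 fell, with a list median of -0.57. Dsp, desmoplakin, which ties desmosomes to keratin, read 8.49, 9.05 and 8.99 on the fitted parental arrays, 7.46 on the array left out, and 7.01, 6.43, 6.00 and 5.72 on the 4T1OE-CTL arrays. The lines did not overlap, and Dsp fell by 2.52 (SE 0.305, adjusted p = 0.00158). The desmosomal cadherin Dsg2 fell by 2.05, Jup (plakoglobin) by 2.63 and the plakophilin Pkp3 by 1.18. Pkp3 lost its call in 17 of the 24 alternative fits. Jup read 7.66 on the array left out, below every 4T1OE-CTL array, and it lost its call with all 12 arrays (adjusted p = 0.603). The count of fallen desmosome genes was 2 with all 12 arrays, 2 without WT parental replicate 2 and 1 without Nlrx1-/- parental replicate 2.

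The regulators of the epithelial state moved with the junction genes in 3 of 18 cases, all of them falls, at a list median of -0.19. Grhl2, a transcription factor of epithelial genes, read 9.17, 9.78 and 8.92 on the fitted parental arrays, 8.40 on the array left out, and 6.94, 6.87, 6.30 and 5.59 on the 4T1OE-CTL arrays. No array of 1 line reached the other, and Grhl2 fell by 2.79 (SE 0.364, adjusted p = 0.0022). Esrp1, an epithelial splicing factor, fell by at least 2.41 (adjusted p = 0.00187), since its 4T1OE-CTL values of 4.32 to 5.54 were all under their negative controls. Esrp2 fell by 1.53 (adjusted p = 0.0329). The count was 2 with all 12 arrays, 5 without WT 4T1OE-CTL replicate 2 and 0 without the arrays of standard deviation under 3. In the list of polarity and apical trafficking genes 1 of 16 was called, against 1.62% of all features called lower. This was Pard3, a polarity scaffold, which fell by 1.57. Pard3 lost its call with all 12 arrays (adjusted p = 0.384), without WT parental replicate 2 and without Nlrx1-/- parental replicate 2. That list's count was 0 with all 12 arrays, 2 when WT 4T1OE-CTL replicate 2 was omitted and 3 when Nlrx1-/- 4T1OE-CTL replicate 1 was.

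Membrane serine proteases and their Kunitz-type inhibitors, which act at the epithelial surface, had 4 of 11 members fall at a list median of -1.72. St14 (matriptase) fell by 1.97 and its inhibitors Spint1 and Spint2 by 1.74 and 1.56. Prss8 (prostasin) fell by at least 0.28. St14 lost its call in 16 and Prss8 in 12 of the 24 alternative fits. Spint1 read 11.37 to 11.52 on the fitted parental arrays and as low as 9.32 on the 4T1OE-CTL arrays, without overlap. The array left out also read 9.32, and none of the 4 genes was called with all 12 arrays (Spint1 adjusted p = 0.251). Without WT parental replicate 2 or without Nlrx1-/- parental replicate 2, 1 member was called, and without Nlrx1-/- 4T1OE-CTL replicate 2 there were 2.

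Of 11 keratins none was called, at a median of -0.30, but some alternative fits called up to 2. Among these were 2 without WT 4T1OE-CTL replicate 1 and 1 after quantile normalization. Krt18, a keratin of simple epithelium, read 15.78, 16.25 and 15.85 on the fitted parental arrays, 13.74 on the array left out, and 15.34, 14.82, 14.10 and 13.05 on the 4T1OE-CTL arrays, a difference of -1.54 (SE 0.393, adjusted p = 0.0629). It stayed uncalled in 20 of the 24 alternative fits and passed the threshold in the others, among them that without WT 4T1OE-CTL replicate 1. Over these 24 fits Krt18 differed by -1.86 to -1.08. Its partner Krt8 differed by -0.93 (SE 0.344, adjusted p = 0.2). Among 20 genes of epithelial-mesenchymal transition and mesenchymal state, 1 was called, the transcription factor Tcf4, which fell by 1.68 (adjusted p = 0.0391) and lost its call with all 12 arrays. Zeb1, Snai1, Twist1 and Vim, named after their values had been seen, differed by 0.47, 0.03, -0.05 and 0.32, with adjusted p of 0.624, 0.978, 0.944 and 0.714.

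**Figure D2:**
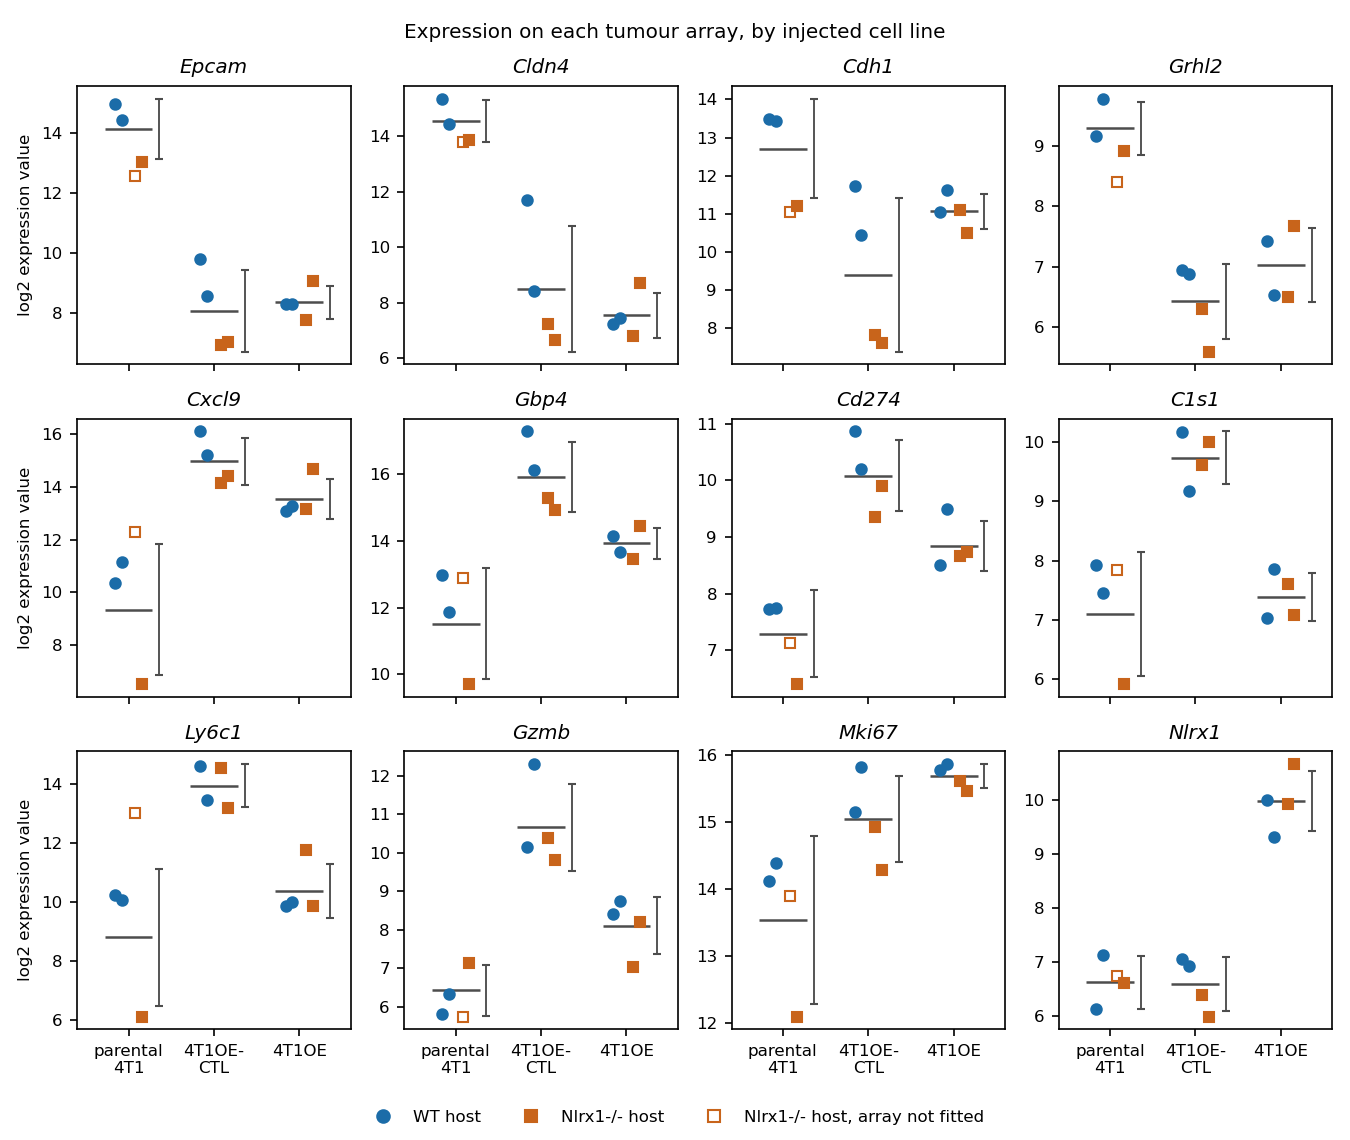
Log2 expression value of 12 genes on each tumour array, by injected line and host; open squares are the array left out of the fit, horizontal lines are the means and bars the SD of the fitted arrays (n = 3 parental, 4 4T1OE-CTL, 4 4T1OE). Epcam, Cldn4 and Grhl2 are lower and Cxcl9, Gbp4, Cd274, C1s1, Ly6c1 and Gzmb higher on every 4T1OE-CTL array than on any of the 4 parental arrays, whereas Cdh1 and Mki67 overlap and Nlrx1 separates only the 4T1OE arrays.

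Nuak1, a kinase of the AMPK family, read 11.50, 10.69 and 10.81 on the fitted parental arrays and 7.92, 7.57, 7.18 and 6.88 on the 4T1OE-CTL arrays, and fell by 3.52 (SE 0.246, adjusted p = 0.000166). The array left out read 7.52, inside the 4T1OE-CTL range, and the adjusted p of Nuak1 was 0.0532 with all 12 arrays. Pdgfc, a ligand of the PDGF alpha receptor, read 14.19, 14.01 and 15.08 on the fitted parental arrays, 12.04 on the array left out, and 10.89, 11.05, 11.60 and 10.62 on the 4T1OE-CTL arrays. It fell by 3.43 (SE 0.277, adjusted p = 0.000409) and did not overlap between the lines.

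Among fibroblast and collagen genes 3 of 23 fell, at a median of -0.56. Lum, the collagen-binding proteoglycan lumican, read 12.26, 12.79 and 11.49 on the fitted parental arrays and 7.89 to 9.28 on the 4T1OE-CTL arrays, with 8.32 on the array left out. It fell by 3.62 (SE 0.401, adjusted p = 0.00114), and its adjusted p was 0.119 with all 12 arrays. Postn, the matricellular protein periostin, fell by 2.86 (SE 0.509, adjusted p = 0.0135), and Sparc by 1.05. Sparc lost its call in 17 of the 24 alternative fits. Postn did not overlap between the lines on all 8 arrays. Only 1 member was called with all 12 arrays or without WT parental replicate 2.

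Growth genes subject to imprinting gave 2 falls among 18, against 1.62% of all features called lower. Mest, a hydrolase-like gene of the paternal allele, fell by 3.09, from 10.88 to 12.25 on the fitted parental arrays to 7.30 to 9.14, while the array left out read 6.82 and the call ended with all 12 arrays (adjusted p = 0.49). The feature annotated as Mir675 read 15.95, 17.79 and 17.90 on the fitted parental arrays, 15.02 on the array left out, and 14.05, 14.56, 13.91 and 11.39 on the 4T1OE-CTL arrays. The lines did not overlap, and it fell by 3.69 (SE 0.695, adjusted p = 0.0174), with an adjusted p of 0.0723 with all 12 arrays. Neither imprinted gene was called without Nlrx1-/- parental replicate 2, and 1 was without WT parental replicate 2.

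By RefSeq coordinates on GRCm38.p6 the Mir675 gene (chr7:142577064-142577147, minus strand) lies inside the H19 gene (chr7:142575530-142578146), a maternally expressed non-coding RNA. The array does not measure the mature arms, and how much of the signal comes from the microRNA precursor and how much from the host transcript is not known. The mature arms are shown because this is the only microRNA gene among the 20 largest falls, with the seed (bases 2 to 8) in capitals. The positions are chr7:142577112-142577133 for the 5p arm and chr7:142577078-142577099 for the 3p arm, and their seeds differ.
mmu-miR-675-5p: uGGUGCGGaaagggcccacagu
mmu-miR-675-3p: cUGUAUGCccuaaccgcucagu

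The remaining genes among the 20 largest falls covered several functions. Gadd45a, induced by DNA damage, fell by 3.10, the MET regulator Macc1 by 3.10, the basement membrane anchor protein gene Lad1 by 3.07 and the iron carrier transferrin (Trf) by 3.08. All of these lost their calls with all 12 arrays (adjusted p = 0.333 for Gadd45a, 0.0522 for Macc1, 0.0993 for Lad1 and 0.345 for Trf). Macc1 also lost its call without WT parental replicate 2 or Nlrx1-/- parental replicate 2, and Trf lost its call in 14 of the 24 alternative fits. In Trf the lines overlapped, since WT parental replicate 1 read 13.14 and Nlrx1-/- 4T1OE-CTL replicate 1 read 13.46. Il23a, the p19 subunit of interleukin 23, read 9.94, 9.69 and 9.35 on the fitted parental arrays and 5.34 to 7.21 on the 4T1OE-CTL arrays. It fell by 3.29 (SE 0.313, adjusted p = 0.000619), and the array left out, at 6.90, lay within the 4T1OE-CTL range. Moxd1, a monooxygenase-like gene, fell by 3.49 and was lower on all 4 4T1OE-CTL than on all 4 parental arrays, though its call was lost without WT parental replicate 2 or Nlrx1-/- parental replicate 2. Prom2, a membrane protein of epithelial protrusions, fell by at least 2.31.

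Interferon gamma response genes moved the opposite way. Of 29 measured, 20 rose and none fell, against 0.968% of all features called higher, and the list median was 2.46. With all 12 arrays 16 were called, without Nlrx1-/- parental replicate 2 there were 10, and with the 8 arrays of the compared lines alone 4. The ligand gene Ifng read 4.06, 4.54 and 4.30 on the fitted parental arrays, 5.77 on the array left out, and 5.85, 7.13, 5.56 and 6.33 on the 4T1OE-CTL arrays (adjusted p = 0.0158). All fitted parental arrays lay under their negative controls, so Ifng was at least 0.38 higher. WT 4T1OE-CTL replicate 1 and Nlrx1-/- 4T1OE-CTL replicate 1 also lay under theirs (5.86 and 6.07). The array left out reached the lower 4T1OE-CTL values. The receptor genes Ifngr1 and Ifngr2 differed by -0.41 and -0.34 (adjusted p = 0.373 and 0.458). These 3 genes were named after their values had been seen.

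Cxcl9, a chemokine for T cells and natural killer cells, rose most of all called genes. It read 10.37 and 11.16 on the WT parental arrays, 6.52 on the Nlrx1-/- parental array, 12.29 on the array left out, and 16.12, 15.23, 14.14 and 14.40 on the 4T1OE-CTL arrays. Every 4T1OE-CTL array was above every parental array, and the Nlrx1-/- parental array was far below the others of its line. The difference was 5.84 (SE 0.79, adjusted p = 0.00269), or 4.89 (adjusted p = 0.042) with all 12 arrays. The related chemokines Cxcl10 and Cxcl11, also named after their values had been seen, were 2.69 and 2.66 higher (adjusted p = 0.00414 and 0.00918).

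The GTPases of this response rose together. Gbp4, a guanylate-binding protein, read 12.99, 11.87 and 9.70 on the fitted parental arrays, 12.88 on the array left out, and 17.29, 16.11, 15.28 and 14.93 on the 4T1OE-CTL arrays. It was 4.59 higher (SE 0.538, adjusted p = 0.0014), without overlap. Igtp, an immunity-related GTPase that acts on parasite vacuoles, read 8.66, 8.75 and 6.82 on the fitted parental arrays, 8.64 on the array left out, and 13.65, 12.26, 11.23 and 11.71 on the 4T1OE-CTL arrays.

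Igtp was 4.29 higher (SE 0.46, adjusted p = 0.00112), a 19.6-fold difference, and it was called in each of the 24 alternative fits. Its relatives Iigp1, Tgtp2, Gm12250 and Irgm2 were 4.27, 4.02, 3.86 and 3.46 higher, and each was called in at least 22 of the 24. In each of these relatives the 4T1OE-CTL arrays stood above all 4 parental arrays. Gvin1, a very large interferon-induced GTPase, was 3.07 higher but overlapped the array left out (12.36, against 12.35 to 14.10 on the 4T1OE-CTL arrays). Tgtp2 has a near-identical neighbour, Tgtp1, and probes may not tell such copies apart.

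The promoter stretches of 6 of these targets are shown because the genes moved together and because each holds a match to the core of the interferon-stimulated response element, GAAANNGAA, or to the STAT site, TTCNNNGAA. Matches on either strand are in capitals. The stretches come from RefSeq on GRCm38.p6, 5′ to 3′ on the gene's strand, and end before the start of the gene. Igtp lies at chr11:58199496-58199545 (plus), Irgm2 at chr11:58214887-58214936 (plus), Tgtp2 at chr11:49064259-49064308 (minus), Gm12250 at chr11:58183738-58183821 (plus), Cxcl9 at chr5:92328231-92328269 (minus) and Gbp2 at chr3:142620590-142620628 (plus).
Igtp: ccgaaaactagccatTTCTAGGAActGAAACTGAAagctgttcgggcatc
Irgm2: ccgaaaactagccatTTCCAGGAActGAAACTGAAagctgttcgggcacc
Tgtp2: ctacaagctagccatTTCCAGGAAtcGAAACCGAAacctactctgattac
Gm12250: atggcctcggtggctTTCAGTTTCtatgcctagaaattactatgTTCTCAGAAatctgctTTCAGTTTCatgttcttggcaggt
Cxcl9: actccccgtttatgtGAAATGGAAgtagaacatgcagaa
Gbp2: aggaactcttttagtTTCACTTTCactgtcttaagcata

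In Igtp, Irgm2 and Tgtp2 a STAT match is followed after a short gap by a response element match, on 50-base stretches of which Igtp and Irgm2 share 48 bases and Igtp and Tgtp2 34. Over windows from 250 bases before to 50 bases after the start, GAAANNGAA had a match in 23.1% of 182 promoters of genes called higher, 4.33% of 323 of genes called lower and 7.98% of all 19143 promoters of tested genes. TTCNNNGAA had a match in 14.8%, 4.64% and 7.75% of them, and a match to either of these motifs can share bases with the other. The E-box CACCTG was found in 12.1% of promoters of genes called higher, 29.1% of those called lower and 19.7% of all. The Grainyhead site AACCGGTT was found in 1.1%, 0.0% and 0.178%. A match to a short motif is a description of the sequence and no evidence of binding.

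Type I interferon response genes rose as well, in 17 of 33 cases with none falling, against 0.968% of all features called higher. The list median was 1.27, with a positive difference for all 33. Herc6, a ubiquitin-ligase-like gene that conjugates Isg15, read 10.04, 9.88 and 9.26 on the fitted parental arrays, 11.23 on the array left out, and 12.47, 12.07, 12.57 and 11.85 on the 4T1OE-CTL arrays. The lines did not overlap, and Herc6 was 2.55 higher (SE 0.25, adjusted p = 0.000768). Ifit3 and Ifit1, which bind foreign RNA, were 2.74 and 1.96 higher, the transcription factor Irf7 2.22 and tetherin (Bst2) 1.93. In Ifit1 WT parental replicate 1 and Nlrx1-/- parental replicate 2 lay under their negative controls, so its size is uncertain. The count was 7 with all 12 arrays, 3 without Nlrx1-/- parental replicate 2, 8 without WT parental replicate 2 and 11 without WT 4T1OE-CTL replicate 1. Of the interferon-inducible p200 family, 1 of 9 was called, Mndal (1.42, adjusted p = 0.0387), and all 9 differences were positive. Mndal lost its call in 16 of the 24 alternative fits, among them that with all 12 arrays (adjusted p = 0.0887).

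Antigen presentation genes rose in part. In the list of MHC class I and peptide loading genes 4 of 19 were called, all higher, and all 19 differences were positive, at a median of 0.74. H2-T23, the non-classical molecule Qa-1, read 12.67, 11.90 and 11.65 on the fitted parental arrays, 12.04 on the array left out, and 14.52, 14.23, 14.06 and 13.79 on the 4T1OE-CTL arrays. It was 2.11 higher (SE 0.273, adjusted p = 0.00203), without overlap and in each of the 24 alternative fits. The peptide transporter Tap1 was 1.99 higher, H2-T22 1.58 and Tapbpl 0.93. They lost their calls in 12, 10 and 18 of the 24 alternative fits, in that order. With all 12 arrays H2-T23 was the only one called, and 1 was called without WT parental replicate 2 or without Nlrx1-/- parental replicate 2. Leaving out any of WT 4T1OE-CTL replicate 1, Nlrx1-/- 4T1OE-CTL replicate 1 and Nlrx1-/- 4T1OE-CTL replicate 2 left 2. Of the MHC class II list 1 of 11 was called, the peptide exchange factor H2-DMb1 (2.73, adjusted p = 0.0275), and all 11 differences were positive. H2-DMb1 lost its call with all 12 arrays (adjusted p = 0.0519) and in 9 of the 24 alternative fits in all, among them those without WT parental replicate 2, Nlrx1-/- parental replicate 2 or either WT 4T1OE-CTL array. The class II count ranged from 0 to 4.

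Immune checkpoint genes held 2 called members among 20, both ligands of Pdcd1. Cd274 read 7.74, 7.75 and 6.40 on the fitted parental arrays, 7.12 on the array left out, and 10.87, 10.20, 9.36 and 9.90 on the 4T1OE-CTL arrays. It was 2.92 higher (SE 0.304, adjusted p = 0.00106). Pdcd1lg2, PD-L2, was 2.76 higher (SE 0.34, adjusted p = 0.00166). Neither gene overlapped between the lines, and both were called with all 12 arrays and without any 1 array.

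In the complement list 7 of 23 genes were called higher and none lower. The list as a whole moved little, with 14 positive and 9 negative differences at a median of 0.22. The proteases of the C1 complex C1s1, C1s2 and C1ra were 2.71, 2.47 and 2.21 higher, C4b 3.23, C4a at least 1.63 and Cfb, factor B of the alternative pathway, 2.18. C4b read 8.26, 8.51 and 7.48 on the fitted parental arrays, 9.54 on the array left out, and 10.63, 11.69, 11.03 and 11.89 on the 4T1OE-CTL arrays, and its difference had an adjusted p of 0.00106. The lines did not overlap in C4b, C4a, C1s1, C1ra or Cfb, and in C1s2 the array left out (7.95) lay just above the lowest 4T1OE-CTL array (7.90). With all 12 arrays 6 members were called. C4a and C4b, like C1s1 and C1s2, are close copies whose probes may not tell them apart.

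**Figure D3:**
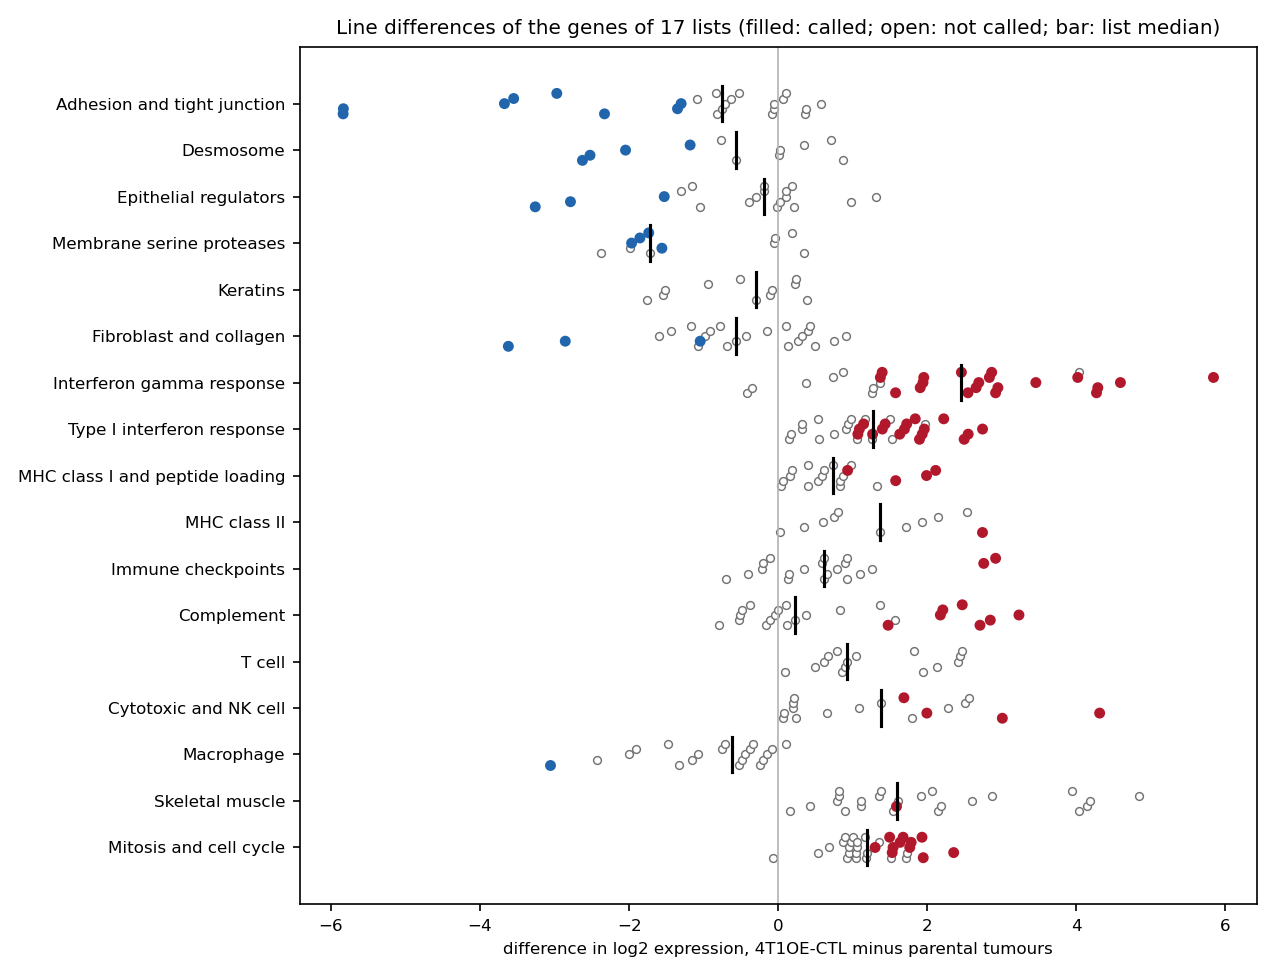
Difference in log2 expression (4T1OE-CTL minus parental tumours, host genotype as covariate) of each measured gene in 17 gene lists; filled points are called (adjusted p under 0.05), open points are not, and the vertical bars are list medians; genes given in the text as a bound are drawn at their fitted difference. Junction, desmosome and serine protease lists reach to the left with called genes on that side only, the interferon lists lie almost wholly to the right, and keratin and T cell lists have no called gene in the reported fit.

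Markers of immune cells were compared next. Ly6c1, a surface protein of monocytes, T cells and endothelium, read 10.23 and 10.06 on the WT parental arrays, 6.12 on the Nlrx1-/- parental array, 13.03 on the array left out, and 14.61, 13.46, 14.55 and 13.18 on the 4T1OE-CTL arrays. The array left out came within a small margin of the lowest 4T1OE-CTL array. Ly6c1 was 5.27 higher (SE 0.839, adjusted p = 0.00715), and with all 12 arrays the adjusted p was 0.137. Ly6c2, its monocyte relative, was 4.61 higher (adjusted p = 0.0216), and the array left out (10.96) overlapped the 4T1OE-CTL range of 9.97 to 12.57. These were the 2 called members of 17 in the Ly6 family, and 1 was called without WT parental replicate 2, without Nlrx1-/- parental replicate 2 or without WT 4T1OE-CTL replicate 1.

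Genes of cytotoxic and natural killer cells rose in 4 of 17 cases, at a median of 1.37 with all 17 positive. Granzyme B (Gzmb), a protease of cytotoxic granules, read 5.81, 6.35 and 7.13 on the fitted parental arrays, 5.74 on the array left out, and 10.14, 12.31, 10.38 and 9.81 on the 4T1OE-CTL arrays. All 4T1OE-CTL arrays were above all parental arrays, and Gzmb was 4.31 higher (SE 0.554, adjusted p = 0.00198) and called in each of the 24 alternative fits. Gzma was 3.01 higher, the activating receptor Klrk1 (NKG2D) 1.69 and the granule protein Nkg7 at least 0.65. Nkg7 lost its call in 13 of the 24 alternative fits. Gzma, Gzmb and Klrk1 lay under the negative controls on WT parental replicate 1, and Klrk1 also on Nlrx1-/- parental replicate 2. The sizes of these 3 differences are thus uncertain. With all 12 arrays 3 were called.

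Of 15 general T cell genes none was called, all 15 differences were positive, and the median was 0.93. Without Nlrx1-/- 4T1OE-CTL replicate 2, or without the arrays of standard deviation under 3, 1 was called. Cd8a read 5.60, 5.12 and 5.49 on the fitted parental arrays, 8.09 on the array left out, and 7.47, 8.27, 10.04 and 6.14 on the 4T1OE-CTL arrays (adjusted p = 0.174). The highest value stood on Nlrx1-/- 4T1OE-CTL replicate 1, which also carried genes of lymph node and B cells. On that array the median deviation of the list from each gene's median was 2.64 for B and plasma cell genes and 2.42 for lymph node stroma, against -0.05 to 0.08 and -0.06 to 0.41 on the other 4T1OE-CTL arrays and -0.07 to 0.13 and -0.35 to 0.00 on the fitted parental arrays. The array left out was also raised, at 1.13 for B and plasma cell, 0.88 for lymph node and 1.39 for T cell genes. None of the 13 B cell or 11 lymph node genes was called, though 2 lymph node genes were without WT parental replicate 1 and 1 was without Nlrx1-/- 4T1OE-CTL replicate 1. The 2 fitted arrays high in these genes were Nlrx1-/- 4T1OE-CTL replicate 1 and Nlrx1-/- 4T1OE replicate 1. Without them 420 features were called, among them 2 T cell, 2 lymph node, 3 cytotoxic and 20 interferon gamma response genes.

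Macrophage genes leaned the other way, with 19 of 20 differences negative at a median of -0.61, but the lines overlapped and only Fcrls was called. The median deviation of the list was -1.87, -0.30, -0.59 and -1.20 on the 4T1OE-CTL arrays. It was -1.01, 0.44 and 0.00 on the fitted parental arrays and -1.82 on the array left out. Fcrls, an Fc receptor-like gene of resident macrophages, fell by 3.06 (SE 0.581, adjusted p = 0.0178), from 8.75, 11.51 and 10.78 to 7.92, 6.42, 7.54 and 7.76, and the array left out read 8.44. Its adjusted p was 0.141 with all 12 arrays. Without Nlrx1-/- parental replicate 2 no macrophage gene was called, without WT parental replicate 1 or WT 4T1OE-CTL replicate 2 there were 5, and without Nlrx1-/- 4T1OE-CTL replicate 1 there were 4. In the monocyte and neutrophil list 2 of 20 rose, Ly6c2 and Plac8 (3.97), and Plac8 overlapped the array left out (12.35).

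Chemokine and mast cell genes gave a few calls. Ccl8, a monocyte chemoattractant, read 7.99, 7.82 and 6.32 on the fitted parental arrays, 8.12 on the array left out, and 10.54, 10.85, 11.26 and 13.31 on the 4T1OE-CTL arrays. It was 4.07 higher (SE 0.605, adjusted p = 0.00476), and no parental array reached the 4T1OE-CTL range. Mcpt1, a mucosal mast cell protease, was at least 2.72 higher (adjusted p = 0.00646) and was the only called gene of 16 in the mast cell and eosinophil list. The mast cell receptor gene Kit, named after its value had been seen, differed by -1.04 (adjusted p = 0.173). Tslp, an epithelial cytokine, was 1.65 higher, from 11.31, 11.45 and 11.34 to 13.64, 12.84, 12.48 and 13.08, with 10.53 on the array left out.

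Skeletal muscle genes also differed between the pools. All 24 differences were positive at a median of 1.59, and 1 gene was called, the muscle enolase Eno3 (1.58, adjusted p = 0.0482), which lost its call in 17 of the 24 alternative fits. The median deviation of the list was 1.84, 0.80, 0.00 and 2.15 on the 4T1OE-CTL arrays and -0.17, -0.43 and -0.32 on the fitted parental arrays, with 0.15 on the array left out. Acta1, skeletal alpha actin, named after its values had been seen, read 12.51, 9.83, 6.48 and 11.92 on the 4T1OE-CTL arrays and 5.47 to 5.94 on all 4 parental arrays. Muscle signal was thus high on 3 of the 4 4T1OE-CTL arrays, and its part in the other differences was not tested. The 2 fitted arrays highest in muscle genes were WT 4T1OE replicate 1 (3.16), outside the compared lines, and Nlrx1-/- 4T1OE-CTL replicate 2. Without them 253 features were called, with the WT 4T1OE-CTL arrays, at 1.84 and 0.80, still in the fit. Among them were 6 epithelial adhesion, 19 interferon gamma and 12 type I interferon response genes, but only 3 mitosis genes, 1 MHC class I gene, 1 serine protease gene and 0 genes of TGF-beta and BMP signalling.

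Vessel-associated genes gave few calls. Of 22 endothelial genes Cdh5, VE-cadherin, fell by 2.10 (adjusted p = 0.0349) and Ly6c1 rose, and of 12 pericyte and smooth muscle genes Rgs5 and Acta2 fell by 2.14 and 1.82. Cdh5 read 7.35 on the array left out, below every 4T1OE-CTL array, and lost its call with all 12 arrays (adjusted p = 0.716). Neither Rgs5 nor Acta2 was called without WT parental replicate 2 or without Nlrx1-/- parental replicate 2. None of 13 adipocyte or 7 Schwann cell and nerve genes was called, and Xdh (2.82 higher) was the only call among 17 milk and mammary secretory genes.

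**Figure D4:**
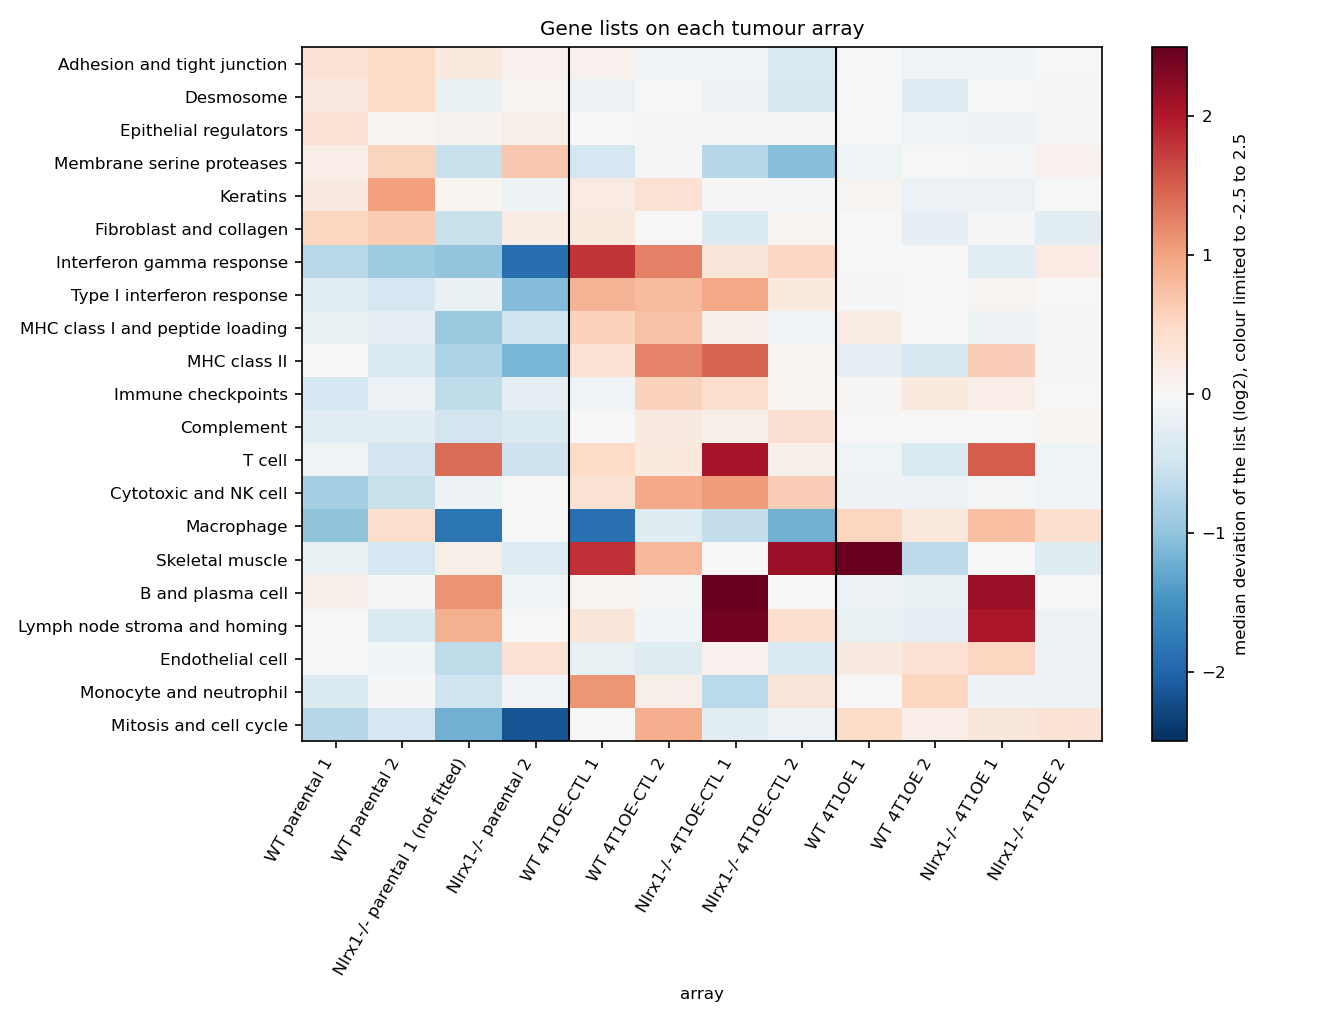
Median deviation of 21 gene lists on each of the 12 tumour arrays, in log2 units, where a gene's deviation is measured from its own median on the 11 fitted arrays. The interferon gamma and type I interferon lists are high on the 4T1OE-CTL arrays and low on the parental arrays, B cell and lymph node lists stand out on Nlrx1-/- 4T1OE-CTL replicate 1 and Nlrx1-/- 4T1OE replicate 1, and muscle genes are high on 3 of the 4 4T1OE-CTL arrays and on WT 4T1OE replicate 1.

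Mitosis and cell cycle genes were higher in 4T1OE-CTL tumours, in 11 of 32 cases with none lower, against 0.968% of all features called higher. The list median was 1.19, with 31 positive differences. Ube2c, which loads ubiquitin for the anaphase-promoting complex, read 9.62, 9.79 and 8.46 on the fitted parental arrays, 8.38 on the array left out, and 10.53 to 12.14 on the 4T1OE-CTL arrays. It was 1.95 higher (SE 0.339, adjusted p = 0.012), without overlap. Rrm2, of nucleotide synthesis, was 2.36 higher, and the mitotic kinases Plk1, Aurka and Bub1 1.93, 1.79 and 1.77.

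Mki67, the proliferation marker Ki-67, read 14.12, 14.39 and 12.09 on the fitted parental arrays, 13.89 on the array left out, and 15.15, 15.83, 14.93 and 14.28 on the 4T1OE-CTL arrays. The Nlrx1-/- parental array was the lowest by a wide margin, and 1 WT parental array lay above the lowest 4T1OE-CTL value. Without that Nlrx1-/- parental array, replicate 2, none of the 32 genes was called, and without WT 4T1OE-CTL replicate 2 there were 6. With all 12 arrays 6 were called, and without the 2 arrays highest in muscle genes 3. On the 4T1OE arrays Mki67 read 15.47 to 15.88.

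Signalling and stress lists had scattered calls, to be read beside 1.62% of all features called lower. Of 24 p53 target and apoptosis genes 4 fell (Gadd45a, Perp, Bcl2l11 and Ei24), 2 without Nlrx1-/- parental replicate 2. Of 30 PDGF, VEGF and FGF genes 3 fell, Pdgfc, Pdgfrl and Fgfr1, the last by at least 0.59. Of 30 genes of TGF-beta and BMP signalling 3 fell (Tgfb3 by 1.49, Id3 by 1.35 and Bmpr2 by 1.09), and 0 were called with all 12 arrays or without Nlrx1-/- parental replicate 2. The ErbB receptor gene Erbb2 fell by 1.36 and the receptor Igf2r, which clears IGF2, by 1.74, each the only call of its list. Both lost their calls with all 12 arrays (adjusted p = 0.547 for Erbb2 and 0.452 for Igf2r), without WT parental replicate 2 and without Nlrx1-/- parental replicate 2. Erbb2 read 6.02 on the array left out, below every 4T1OE-CTL array. No gene of 41 in Wnt and Notch signalling or of 28 in the lysosome and autophagy list was called, but 3 of each were without WT parental replicate 1 and 1 of each without WT 4T1OE-CTL replicate 2.

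Metabolic and innate genes moved singly. Sod3, the extracellular superoxide dismutase, was 3.95 higher (SE 0.628, adjusted p = 0.0071), from 3.63, 6.20 and 5.06 to 7.71, 9.07, 9.68 and 9.60, without overlap with the array left out at 4.86. In Sod3 WT parental replicate 1, Nlrx1-/- parental replicate 2 and the array left out lay under their negative controls, so its size is uncertain. The metalloreductase gene Steap1 was 2.52 higher and the metallothionein gene Mt2 also rose, whereas transferrin and ceruloplasmin (Cp) were lower, by log2 differences of -3.08 and -1.28. Pfkfb3, an activator of glycolysis, was 2.12 higher and Cycs, cytochrome c, 1.33. Casp1 and Casp4, of inflammasome signalling, were 1.03 and 1.38 higher, and no other of 22 genes in that list was called. Casp1 lost its call with all 12 arrays (adjusted p = 0.0519), where 1 gene of the list was called. Without WT parental replicate 2 or Nlrx1-/- parental replicate 2 none was called, and without WT 4T1OE-CTL replicate 2 there were 3. F5, coagulation factor V, was at least 3.12 higher, and F13a1 and the thrombin receptor F2r fell by 2.66 and 1.36. The adjusted p with all 12 arrays was 0.425 for F13a1, 0.462 for F2r, 0.482 for Cp, 0.0535 for Mt2 and 0.0884 for Cycs, so that none of these was called.

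The difference between the lines was next taken within each host. In WT hosts, with 2 arrays against 2, 108 features were called (0.486%), 64 higher and 44 lower. In Nlrx1-/- hosts, with 2 arrays against 1, 359 were called (1.62%), 121 higher and 238 lower, and 70 features were called in both. Epcam differed by -5.50 in WT and -6.02 in Nlrx1-/- hosts (adjusted p = 0.00528 and 0.00393). Igtp differed by 4.25 and 4.65 (adjusted p = 0.00576 and 0.00836) and Cxcl9 by 4.91 and 7.75 (adjusted p = 0.00576 and 0.00147). All 575 features called over both hosts had the same sign in each host, which a call made on these same arrays largely fixes.

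The sizes leaned toward the Nlrx1-/- hosts, where 296 of the 360 lower and 127 of the 215 higher calls were larger. The test of the difference itself, the interaction of line and host, called 0 features (0.0%) with limma, and 1803 had an unadjusted p under 0.05. Median differences of the interferon gamma list were 2.19 in WT and 2.38 in Nlrx1-/- hosts and those of the epithelial adhesion list -0.80 and -0.69. The values in Nlrx1-/- hosts rest on 1 parental array, and with all 12 arrays 4 features were called in WT and 1 in Nlrx1-/- hosts.

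The genes with the largest differences between hosts all had an adjusted p of 0.594 for the interaction. Rab25, a GTPase of epithelial recycling vesicles, read 9.53 and 9.01 on the WT parental arrays, 6.31 on the Nlrx1-/- parental array, 7.54 on the array left out and 5.58 to 6.40 on the 4T1OE-CTL arrays. The Nlrx1-/- parental array lay at the level of the 4T1OE-CTL arrays, and the difference was -3.43 in WT and -0.15 in Nlrx1-/- hosts. Over both hosts Rab25 was not called in the reported fit or in 18 of the 24 alternative fits. It was called lower in the others. Ly6c1, Ms4a4c, Ccl8 and Plac8 had larger positive differences in Nlrx1-/- hosts, by 3.86, 3.22, 3.18 and 2.96. The chemokine gene Ccl3 differed by 3.85 in WT and -0.65 in Nlrx1-/- hosts, and the serine protease gene Prss22 by 0.14 and -4.33. Srgn (serglycin), Nt5e (CD73) and Gzmf (granzyme F) also had lower differences in Nlrx1-/- hosts, by -4.05, -3.88 and -3.46.

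**Figure D5:**
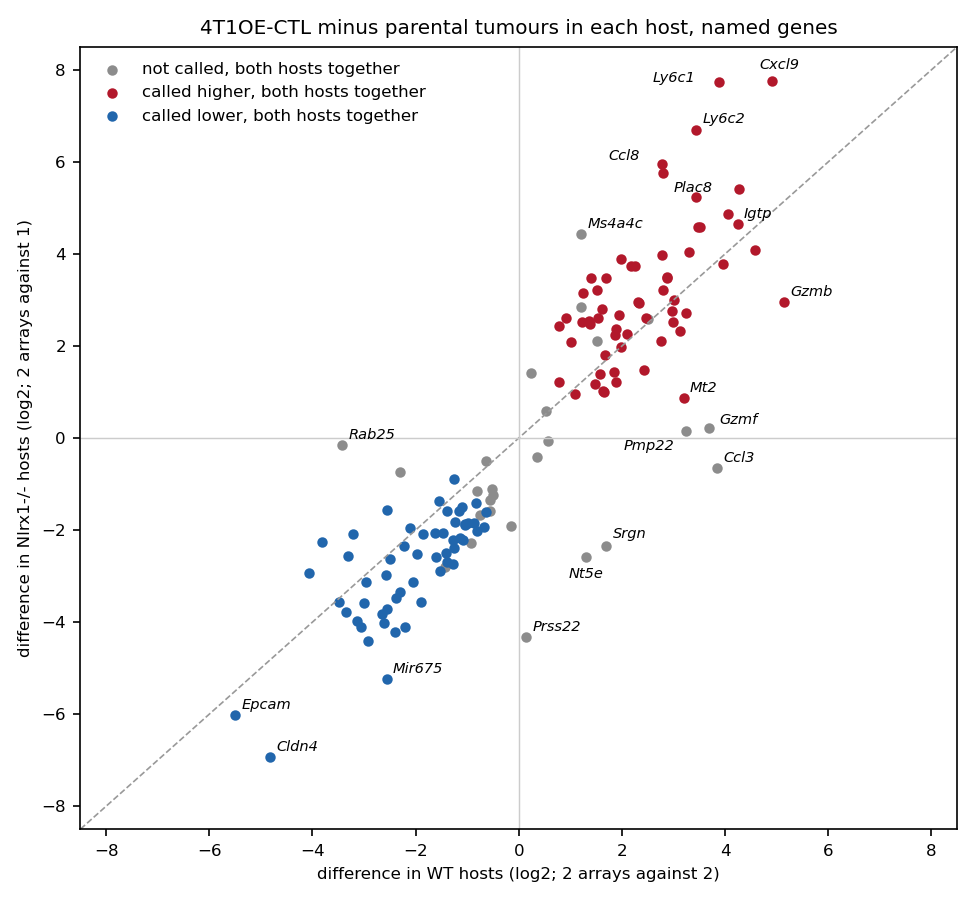
Difference of each named gene (4T1OE-CTL minus parental, log2) in WT hosts on the horizontal axis against that in Nlrx1-/- hosts on the vertical axis, coloured by the call over both hosts; the dashed line marks equal differences. Called genes lie in the upper right and lower left quadrants, with Cxcl9, Ly6c1, Ccl8 and Plac8 above the line and Gzmb below it, while Rab25, Ccl3, Gzmf, Srgn, Nt5e and Prss22 are far from the line and not called over both hosts in the reported fit.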

How the data were processed

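RNA of 12 tumour pools was measured on Clariom S arrays by a commercial service. The authors deposited log2 expression values made with Transcriptome Analysis Console, per the submitters' processing notes. The background correction, normalization and genome build are not given in the sources used here. Of 28846 features, 6640 control features were dropped (6546 MG-1, 31 AFFX and 63 ERCC), and 22206 were tested, 19572 of them with 1 gene symbol in the platform annotation and 2634 with none. No arrays were identical, and 1 column without values was not used.

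The fit used lmFit and eBayes of limma 3.58.1 under R 4.3.3, on 11 arrays, with host and line as additive terms, and a group-means model gave the hosts and the interaction. The number of arrays limits the precision. The functions were tested on simulated data. Alternatives covered the arrays fitted, normalization, filter, variance model, a replicate block and each array left out.

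The comparison, its members and the 51 gene lists (1053 of 1151 genes measured) were chosen with earlier results of these data known. Named genes were Epcam, Cldn4, Cxcl9, Ly6c1 and Nlrx1, the 20 largest called differences in each direction among features with 1 symbol, up to 6 called members of each list (or the 2 with the smallest p where none was called), and, where a host or the interaction had fewer than 10 calls, the called genes and the 5 highest and 5 lowest differences among brighter features (mean over that of the median feature) whose unadjusted p was under 0.01. Where a gene had several features, that with the highest mean was used.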

Additional observations from a re-analysis of the deposited data

Results flagged for a closer look

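In 26 of 280 gene and line combinations tested, 1 of the 4 arrays stood apart from the other 3 by Dixon's criterion, which by chance marks about 1 in 20 groups of genes not chosen on these arrays. Most of the genes were named from a fit without Nlrx1-/- parental replicate 1, which favours genes on which the other 3 parental arrays are close, so that rate does not hold for the 16 on this array. It read low among the parental arrays for Lad1 (9.48), Jup (7.66), Spint1 (9.32), Sparc (15.19), Tslp (10.53), Id3 (6.33), Bmpr2 (12.28), Lrp5 (9.36), Nid1 (8.15), Itgb5 (9.41), F2r (10.08) and H3f3b (14.69). It read high for the T cell genes Icos (9.89) and Cd8a (8.09), for Dnase1l3 (6.84) and, near background, for Ucp1 (3.75).

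Nlrx1-/- parental replicate 2, the only Nlrx1-/- parental array in the fit, read low for Igtp (6.82 against 8.64 to 8.75 on the other parental arrays), Ccl8 (6.32 against 7.82 to 8.12), Irf7 (7.06 against 8.15 to 8.35) and Plk1 (8.49 against 10.82 to 11.12). Among the 4T1OE-CTL arrays, WT replicate 1 read high for Gm12250 (13.45 against 11.35 to 11.56) and WT replicate 2 for the histone gene H2ac4 (14.81 against 12.78 to 12.85). Nlrx1-/- 4T1OE-CTL replicate 1 read high for Cdh5 (10.09 against 8.86 to 9.01) and low for C1s2 (7.90 against 9.20 to 9.30). Nlrx1-/- 4T1OE-CTL replicate 2 read low for Jup (7.9995 against 9.98 to 10.35) and Esrp2 (5.145 against 6.37 to 6.61).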

How the results depend on the processing

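The direction of all 575 called features held in every alternative that tested them, though each alternative shares arrays with the reported fit. The count of calls over both hosts was 1219 at the console's threshold (unadjusted p under 0.05 and 2-fold), 157 with all 12 arrays, 147 with the compared lines alone, 19 when the array left out was added to those, 142 (57.0% higher) without arrays of standard deviation under 3, 253 (49.0% higher) without the 2 arrays highest in muscle genes and 126 to 880 with 1 array left out.

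Within WT hosts, against 108, the counts in the same order were 1033, 4, 6, 0, 65, 70 and 18 to 159, with 42 under array weights and 196 with each array's standard deviation in the model. Within Nlrx1-/- hosts, against 359, they were 2759, 1, 22 and 0, then 26 without the muscle-high arrays, 131 without the 2 arrays high in lymph node genes, 169 with that term and 109 to 510 with 1 array left out. The interaction, 0 as reported, gave 1721 at the console's threshold, 1 with that term and 0 to 1 with 1 array left out. The cause of these shifts was not tested. The Nlrx1-/- and interaction values could not be fitted without Nlrx1-/- parental replicate 2 or without arrays of standard deviation under 3, and the fit on 1 mean per group was run over both hosts only.

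Correlations of the replicate differences between groups ran from -0.309 to 0.371, so no pairing common to all groups was seen. They were 0.363 between WT parental and WT 4T1OE-CTL and 0.371 between Nlrx1-/- 4T1OE and Nlrx1-/- 4T1OE-CTL. A pairing of some groups only was not tested. With the replicate block 480 features were called over both hosts, 76 in WT and 137 in Nlrx1-/- hosts. The fits without muscle-high and lymph-high arrays were chosen after seeing the data. Of the 114 called named genes, 51 were called with all 12 arrays, 50 without Nlrx1-/- parental replicate 2 and 105 after quantile normalization.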

Other observations

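Some genes called between 4T1OE-CTL and parental tumours lay elsewhere on the 4T1OE arrays. Of those given here, Gvin1 and Mest lost their calls with all 12 arrays. Neither separated the lines once the array left out was counted. Herc6 read 10.22 to 10.78 and Gvin1 11.14 to 11.74 there, below every 4T1OE-CTL array. Mest read 10.87 to 12.87, above every 4T1OE-CTL array. By contrast, Sod3 read 8.94 to 11.07, within or above the 4T1OE-CTL range. Cldn7 read 3.69 to 4.35, within or below the 4T1OE-CTL range of 4.27 to 5.20. Interferon gamma targets varied in this. On the 4T1OE arrays Cxcl10 read 9.84 to 10.26 and Gbp2 13.70 to 14.71. These values lay within the 4T1OE-CTL ranges of 9.18 to 10.41 and 13.44 to 16.51. Cxcl9 read 13.09 to 14.70, above every parental array and in part below the 4T1OE-CTL arrays. Igtp read 9.73 to 10.54, above every parental array and below every 4T1OE-CTL array.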
